A study of Mus musculus with 24 samples.

Results

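The brains of mice fed mouse pellets were compared with those of mice fed a chimpanzee diet, in 12 of the 24 arrays of the series, which were chosen by the diet in their titles. All mice were NMR-1 females that were 8 weeks old when the diets began, and all ate their diet for 2 weeks. The 6 pellet mice stayed on the chow they had been raised on, and the 6 chimpanzee diet mice ate vegetables, fruit and yogurt as fed to captive chimpanzees, so that the comparison sets a change of food beside no change. RNA of the right cerebral hemisphere was hybridized to 1 Affymetrix array per mouse, 3 mice per diet in each of 2 labelled batches, and littermates were spread over the diets. The methods leave out 1 pellet brain for degraded RNA without naming it, and all 6 are used here. Values are log2 expression levels, so that a difference of 1 is a doubling, and differences are pellet minus chimpanzee.

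Most cells of the brain run a circadian clock, in which CLOCK and BMAL1 bind E-box sequences and turn on the Per and Cry genes, whose proteins then repress CLOCK and BMAL1. Feeding time, activity and glucocorticoids, the adrenal hormones that rise before waking and under stress, can all move clock gene levels, and glucocorticoids also raise Per1 and Per2 together with targets such as Fkbp5 and Sgk1. Neuronal activity raises a further set, the immediate early genes, within minutes. The methods and the array titles do not give the time of day or the order of killing. Their part in the values below was not tested. A hemisphere is a mixture of cells and regions, and fewer cells of a type cannot be told apart from less RNA per cell.

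The genes with the smallest adjusted p values here included several repressors of the clock, and 3 of their promoters are shown because they hold the E-box CACGTG, which is the same on both strands and stands in capitals. They run from 250 bases before to 50 bases after the start site (RefSeq, GRCm38.p6).

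Per1 (chr11:69098699-69098998, plus strand): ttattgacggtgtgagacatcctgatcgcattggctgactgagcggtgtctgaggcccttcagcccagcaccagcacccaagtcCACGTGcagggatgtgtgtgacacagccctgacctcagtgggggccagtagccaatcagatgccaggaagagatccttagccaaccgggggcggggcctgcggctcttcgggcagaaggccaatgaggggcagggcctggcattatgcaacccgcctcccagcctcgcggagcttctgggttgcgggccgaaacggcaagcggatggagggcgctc
Cry1 (chr10:85185005-85185304, minus strand): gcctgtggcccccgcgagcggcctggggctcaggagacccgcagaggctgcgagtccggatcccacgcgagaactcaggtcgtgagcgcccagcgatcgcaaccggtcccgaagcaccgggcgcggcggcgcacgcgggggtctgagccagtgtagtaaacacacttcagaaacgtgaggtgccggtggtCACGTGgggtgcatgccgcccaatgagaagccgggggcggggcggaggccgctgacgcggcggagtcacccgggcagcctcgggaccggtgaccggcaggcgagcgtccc
Ciart (chr3:95882179-95882478, minus strand): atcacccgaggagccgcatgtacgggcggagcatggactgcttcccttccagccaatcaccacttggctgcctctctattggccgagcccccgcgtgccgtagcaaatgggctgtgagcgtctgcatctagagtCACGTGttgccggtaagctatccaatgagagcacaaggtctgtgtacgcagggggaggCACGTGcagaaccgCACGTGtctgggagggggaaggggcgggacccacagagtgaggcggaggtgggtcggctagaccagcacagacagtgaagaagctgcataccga

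The E-box begins 166 bases before the start site in Per1 and 60 bases before it in Cry1, while Ciart holds 3, which begin 116, 58 and 44 bases before it. The motif is in 7.17% of the 32544 promoters of the table and in 3 of the 7 measured clock repressors that have a promoter there. A second Per1 promoter and those of Per3, Cry2, Nr1d1 and Nr1d2 do not hold these letters in this window. Among 9 clock activators and outputs 1 held it, among 12 immediate early genes 1 and among 14 glucocorticoid targets 2. The cyclic AMP response element TGACGTCA, in 1.8% of all promoters, was in 0 of the clock repressors and of the immediate early genes, while the heat shock element GAANNTTC, in 7.89% of all, was in 10 of 21 genes for chaperones. All 3 motifs read the same on both strands. These matches describe the sequences, and no binding was measured.

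Before the genes, the arrays themselves need a description, since they set what each value can carry. The control probe set for 18S ribosomal RNA lay between 5.87 and 6.30 in chimpanzee batch 1 and between 5.06 and 5.15 in chimpanzee batch 2. The pellet arrays ran the other way round, from 4.96 to 5.51 in batch 1 and from 5.92 to 6.43 in batch 2. The pellet mean exceeded the chimpanzee mean by 0.112 (two-sided exact permutation test, p = 0.716), which is made of −0.892 within batch 1 and 1.12 within batch 2. Pellet batch 2 replicate 1 stands apart from the rest, with an SD of 1.58 over its probe sets and a median correlation of 0.893 with the other 23 arrays. The 3′ minus 5′ signal of Actb and Gapdh, a measure of RNA breakage, differed by −0.0055 between the diets (two-sided exact permutation test, p = 0.894). It was highest of all 24 arrays in pellet batch 2 replicate 3, at 0.388, which also had the second lowest median correlation, 0.980, while pellet batch 2 replicate 1, at 0.240, lay among the chimpanzee arrays (0.170 to 0.336). Defining markers of neurons (Snap25), astrocytes (Gfap) and oligodendrocytes (Mbp) lay at or above percentile 94 of all probe sets, while Prox1 and Dsp of the hippocampus and Eomes of the olfactory bulb were under the level needed for testing.

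**Figure D1:**
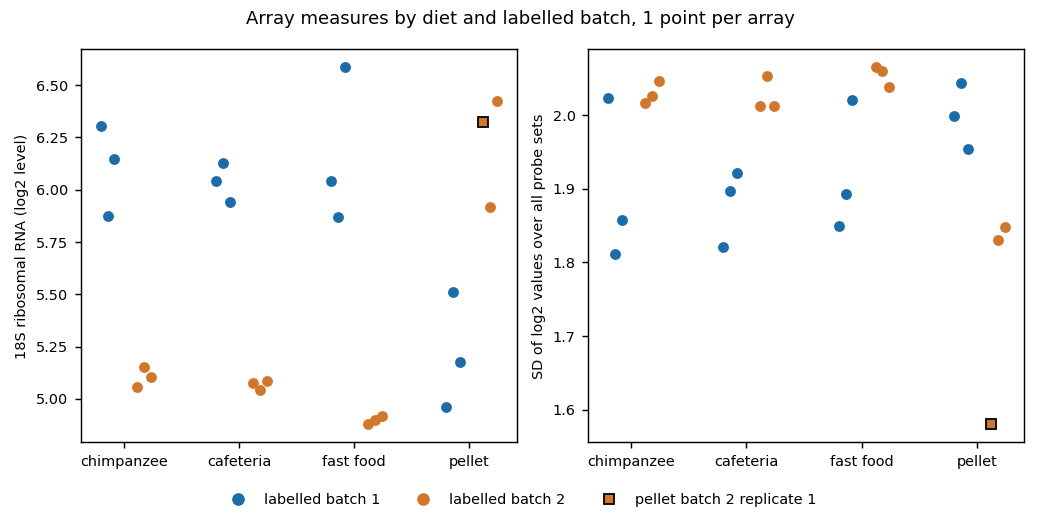
Left, the log2 level of 18S ribosomal RNA and, right, the SD of the log2 values of all probe sets, for each of the 24 arrays by diet, with colours for the labelled batches. In the 3 other diets 18S was higher in batch 1, in the pellet diet it was higher in batch 2, and pellet batch 2 replicate 1 (square) has the lowest SD, at 1.58.

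With labelled batch as a term, 1 of 13839 features passed an adjusted p of 0.05 (0.00723%), the clock gene Per2, which was lower on pellets. No feature was higher. At an unadjusted p under 0.01, 177 features were lower on pellets (1.28%) and 52 were higher (0.376%), and at an unadjusted p under 0.05 these were 949 (6.86%) and 397 (2.87%). The median difference over all features was −0.14, and 70.2% were lower on pellets. This lean depends on which features are counted. With no filter on level, over 27354 features, the median was 0.01 and 47.1% were lower, while with a mean level of at least 6 the median was −0.22 and 89% were lower. The median over the 13839 moved to −0.02 without pellet batch 2 replicate 1 and to −0.01 when the arrays were quantile normalized again. Set to the same median, 8 features passed, of which 2 were higher on pellets (25%), and after quantile normalization 11 passed, of which 1 was higher (9.09%). In the 24-array fit with means for each diet and batch, averaged over the batches, 16 features passed (0.116%), all lower on pellets: Per2, Per1, Cry1, Ciart, Dusp4, Cdh19, Camk1g, Zbtb16, Ier5, Frmd6, Hrh3, Arid5b, Sik2, Gpt2, Adipor2 and Bcor. The p values of that fit take their spread only from arrays of the same diet and batch. They leave out how far the diet difference varied between the batches.

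Per2, whose protein binds CRY to hold back CLOCK and BMAL1, was at 5.36, 5.16 and 5.56 in pellet batch 1 and at 4.33, 5.31 and 4.35 in pellet batch 2. On the chimpanzee diet it was at 6.61, 6.37 and 6.35 in batch 1 and at 6.35, 6.49 and 6.71 in batch 2. Every pellet array lay below every chimpanzee array. The difference was −1.47 (SE 0.18, adjusted p = 0.00031). It was −1.08 (SE 0.19, adjusted p = 0.040) within batch 1 and −1.85 (SE 0.19, adjusted p = 5.5e-05) within batch 2, and these differed from each other (adjusted p = 0.024). Without pellet batch 2 replicate 1 it was −1.33 (SE 0.16, adjusted p = 0.00018), and without pellet batch 2 replicate 3 it was also −1.33 (adjusted p = 0.00075). The call was lost when only the 12 arrays of both diets were fitted (adjusted p = 0.112) and in the methods' two-way test (adjusted p = 0.27). The call within batch 1 was lost with only the 12 or the 6 arrays, and when any of 8 of the 12 arrays was left out. That within batch 2 was lost with only its 6 arrays, where 0 features passed. Of all features, 65.6% passed within batch 2 and 57% passed for the difference between the batches. The means of Per2 on the 2 human diets lay between, at 5.81 ± 0.16 for cafeteria food and 6.11 ± 0.21 for fast food (SD, n = 6).

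Per1, the partner of Per2, had a lowest, median and highest level of 6.55, 6.73 and 6.93 on pellets and of 7.22, 7.37 and 8.00 on the chimpanzee diet. The groups did not overlap, and pellet batch 2 replicate 1, at 6.81, was not the lowest. Its difference of −0.79 (SE 0.15) missed the threshold (adjusted p = 0.060), with −0.70 within batch 1 and −0.88 within batch 2. Cry1, a repressor that acts with the PER proteins, ran from 3.95 through 4.54 to 4.80 on pellets and from 4.91 through 5.10 to 5.50 on the chimpanzee diet. Its groups did not overlap either, and its lowest value was that of pellet batch 2 replicate 1. The difference was −0.66 (SE 0.13, adjusted p = 0.076), and −0.55 (adjusted p = 0.11) without that array. Ciart, which represses CLOCK and BMAL1 and whose promoter above holds 3 E-boxes, lay at 4.57, 5.44 and 5.56 on pellets and at 5.83, 6.11 and 6.40 on the chimpanzee diet. It differed by −0.85 (SE 0.16, adjusted p = 0.058), by −0.59 within batch 1 and by −1.11 within batch 2. Per1, Cry1 and Ciart passed in the fit averaged over the batches (adjusted p = 0.036, 0.028 and 0.028), and in 4, 5 and 9 of the alternative settings in all.

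Bhlhe40, a repressor that binds the same E-boxes, was also lower on all pellet arrays, at 5.87, 7.81 and 8.01 against 8.05, 8.63 and 8.81. Pellet batch 2 replicate 1 gave the lowest value, with 7.48 as the next, and the difference of −0.99 (SE 0.26, adjusted p = 0.38) became −0.65 without it. Per3 (−0.61, SE 0.21) and Cry2 (−0.44, SE 0.15) overlapped between the diets and differed almost only in batch 2, by −1.26 and −0.84, against 0.04 and −0.04 in batch 1. Without pellet batch 2 replicate 1 Cry2 had −0.29. The nuclear receptors Nr1d2 and Nr1d1, which repress Bmal1, had differences of −0.59 (SE 0.27) and −0.08 (SE 0.15). That of Nr1d2 was 0.16 within batch 1 and −0.28 without pellet batch 2 replicate 1, and that of Nr1d1 turned to 0.09 when the arrays were quantile normalized again. All 9 measured clock repressors were thus lower on pellets in the mean (70.2% of all features, 89% of those with a mean level of at least 6). Of the 9, 7 were lower at an unadjusted p under 0.01 (1.28%) and 5 had no overlap between the diets (0.282% of all features). In both batches 6 of the 9 were lower (11.8% of all features). Averaged over the 9 genes, the pellet arrays ran from 5.76 to 6.77 and the chimpanzee arrays from 6.96 to 7.41.

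**Figure D2:**
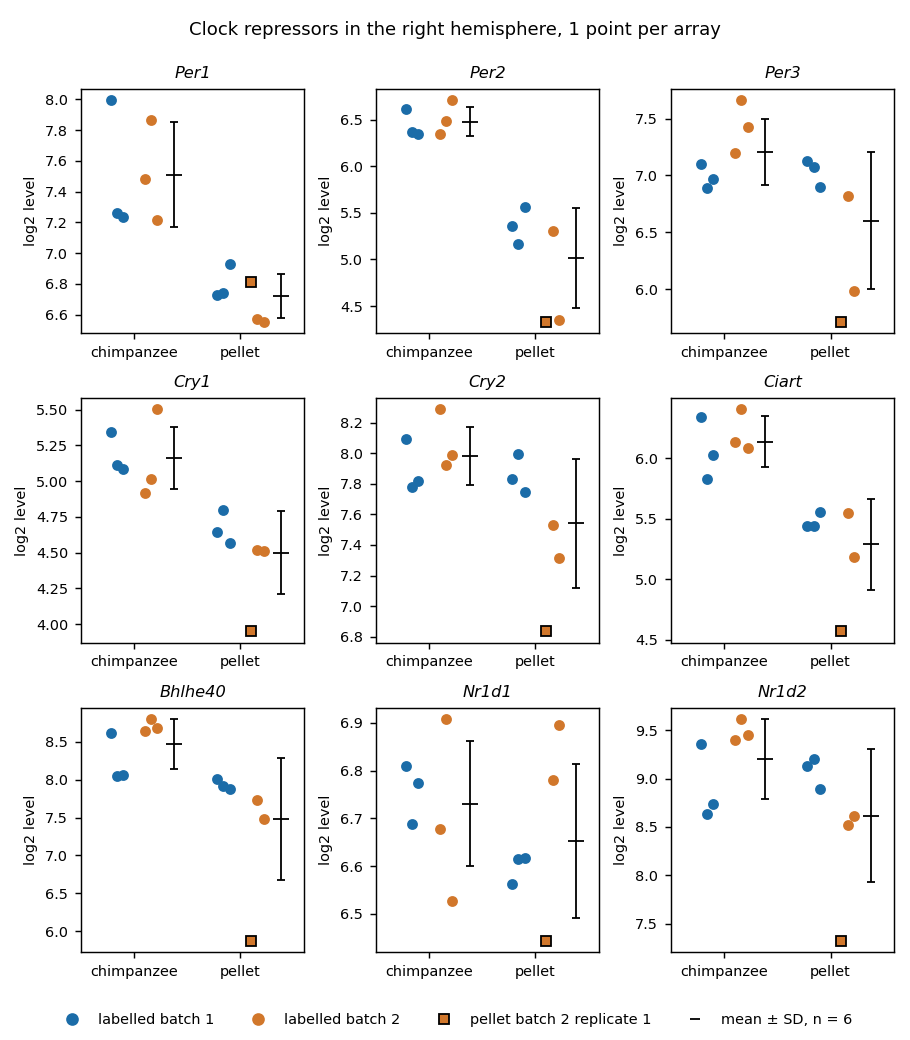
Log2 levels of the 9 measured clock repressors on the 6 chimpanzee and 6 pellet arrays, with labelled batch 1 in blue, batch 2 in orange, pellet batch 2 replicate 1 as a square, and the mean ± SD of each diet. For Per1, Per2, Cry1, Ciart and Bhlhe40 every pellet array lies below every chimpanzee array, only Per2 passed the test, and the small difference of Nr1d1 (−0.08) changes sign with the scaling.

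The activators and outputs of the clock were less uniform. Dbp, a transcription factor whose gene CLOCK and BMAL1 drive directly, was at 7.93, 8.72 and 8.91 on pellets and at 8.93, 9.29 and 9.85 on the chimpanzee diet, with no overlap. Its difference was −0.72 (SE 0.17, adjusted p = 0.22), and −0.58 without pellet batch 2 replicate 1. Its relatives Hlf (−0.52, SE 0.18) and Tef (−0.38) were lower by less (−0.34 and −0.24 without that array), and both overlapped between the diets. The gene of BMAL1 (Arntl) had a difference of 0.14, and Clock one of −0.18 that was 0.04 without pellet batch 2 replicate 1. Of 11 measured activators and outputs 9 were lower (81.8%). Of all features 70.2% were lower, and of those with a mean level of at least 6, 89%. An unadjusted p under 0.01 was reached by 2 of the 11 (1.28% of all features). Their median of −0.26 was 0.05 within batch 1, −0.63 within batch 2 and −0.13 without pellet batch 2 replicate 1.

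Every measured glucocorticoid target was also lower on pellets in the mean. Sult1a1, a sulfotransferase, was at 4.58, 4.73 and 5.10 on pellets and at 5.40, 5.70 and 6.18 on the chimpanzee diet. It did not overlap and was the same in both batches, at −0.93 and −0.95, so that its difference of −0.94 (SE 0.19, adjusted p = 0.076) moved only to −0.92 without pellet batch 2 replicate 1. Fkbp5, which encodes a chaperone that lowers the hormone affinity of the glucocorticoid receptor, was at 5.02, 6.03 and 6.27 against 6.29, 6.65 and 6.78. These groups too did not overlap, and the difference was −0.71 (SE 0.17, adjusted p = 0.22). Zbtb16, a zinc finger repressor, was at 6.50, 7.11 and 7.79 on pellets and at 7.68, 7.83 and 8.57 on the chimpanzee diet. One pellet array, batch 1 replicate 1, reached into the range of the other diet, and the difference was −0.91 (SE 0.20, adjusted p = 0.13).

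Sgk1, a kinase that raises sodium transport and that glucocorticoids induce, was at 5.91, 7.26 and 7.49 on pellets and at 7.63, 7.96 and 8.54 on the chimpanzee diet. It did not overlap, with a difference of −0.97 (SE 0.30, adjusted p = 0.45) that was −0.43 within batch 1. Tsc22d3, also known as GILZ, a hormone-induced inhibitor of inflammation, differed by −0.94 (SE 0.33), but by −0.14 within batch 1 and by −0.51 without pellet batch 2 replicate 1, where it was at 5.59. Pdk4, a kinase that shuts the pyruvate dehydrogenase complex when fat is burned, was lower in both batches (−0.78 and −0.61, the latter −0.42 without pellet batch 2 replicate 1). Of 15 measured glucocorticoid targets 8 had an unadjusted p under 0.01 (1.28% of all features), 3 did not overlap between the diets (0.282%), and 14 were lower in both batches (11.8%), all but Klf9. Their median was −0.64, which was −0.35 within batch 1, −0.98 within batch 2, −0.39 without pellet batch 2 replicate 1 and −0.48 after another quantile normalization. Averaged over the list, the pellet arrays ran from 6.34 to 7.46 and the chimpanzee arrays from 7.50 to 8.01.

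The immediate early transcription factors that neuronal activity induces were also mostly lower. Nr4a3, an orphan nuclear receptor, was at 6.02, 7.12 and 7.25 on pellets and at 7.29, 7.79 and 8.39 on the chimpanzee diet, with no overlap. The difference was −0.90 (SE 0.20, adjusted p = 0.21), and −0.69 without pellet batch 2 replicate 1. Fosl2, a partner of JUN in AP-1, was at 4.41, 6.12 and 6.24 against 6.32, 6.73 and 7.40, again without overlap. It differed by −1.04 (SE 0.28, adjusted p = 0.40), by −0.53 within batch 1 and by −1.54 within batch 2. Its lowest value was that of pellet batch 2 replicate 1, without which the difference was −0.75. Ier5, a regulator of the heat shock factor HSF1, had −0.82 (SE 0.20, adjusted p = 0.27), and its levels overlapped, since pellet batch 1 replicate 2 was at 7.99. The best known genes of the class varied more. Fos had a difference of −0.24 that became 0.01 without pellet batch 2 replicate 1. Egr1 had −0.69 and Junb −0.41 (−0.45 and −0.23 without that array), while Ier2 (0.19) was on the other side of 0. Nr4a2, with −0.44 (SE 0.19), turned to 0.61 when the probe set with the largest spread stood for the gene. Of 16 measured members 13 were lower, a share of 81.2%. It was 70.2% for all features and 89% for those with a mean level of at least 6. An unadjusted p under 0.01 was reached by 4 (1.28% of all features), 2 did not overlap (0.282%) and 10 were lower in both batches (11.8%). Their median of −0.42 was −0.13 within batch 1 and −0.26 without pellet batch 2 replicate 1.

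**Figure D3:**
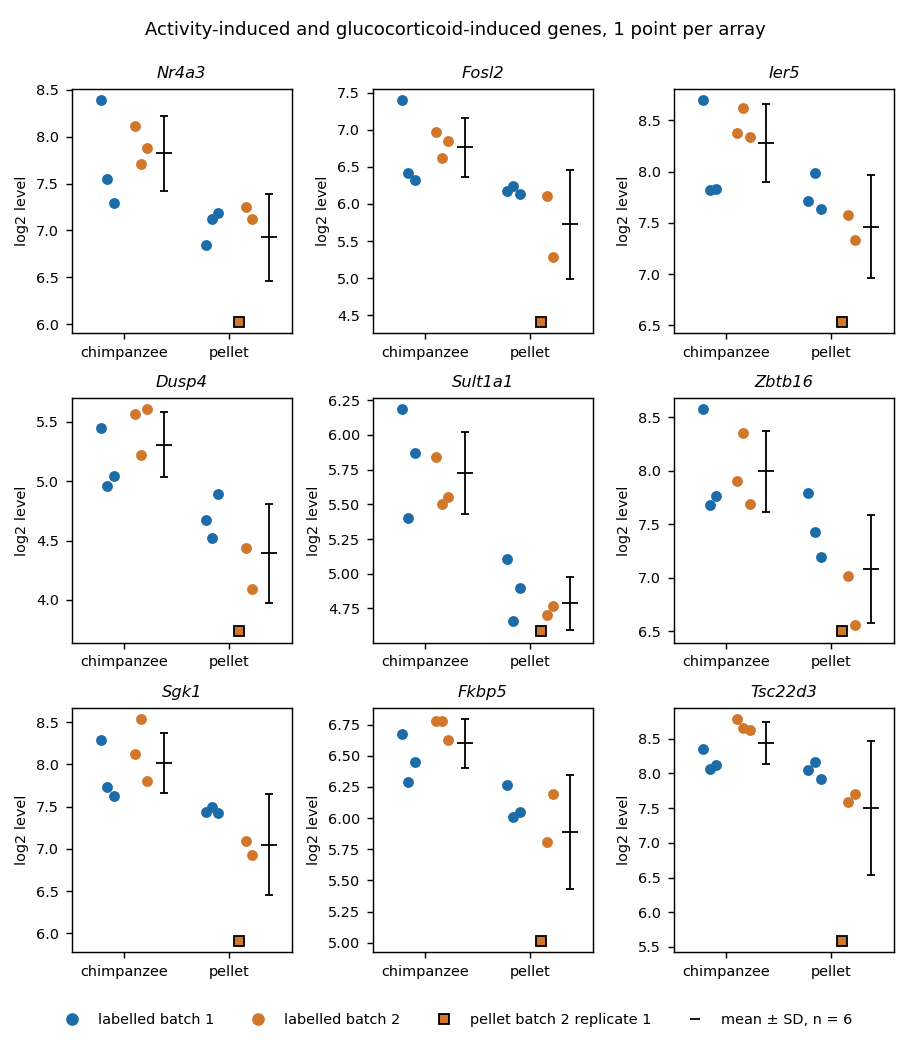
Log2 levels of 4 activity-induced genes (Nr4a3, Fosl2, Ier5, Dusp4) and 5 glucocorticoid targets (Sult1a1, Zbtb16, Sgk1, Fkbp5, Tsc22d3) on the 6 chimpanzee and 6 pellet arrays, with labelled batches in colour, pellet batch 2 replicate 1 as a square and the mean ± SD of each diet. None passed the test. Nr4a3, Fosl2, Dusp4, Sult1a1, Sgk1 and Fkbp5 do not overlap between the diets.

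Among the effectors that activity induces, the smallest p values were those of phosphatases of MAP kinases. Dusp4 was at 3.74, 4.48 and 4.89 on pellets and at 4.96, 5.33 and 5.60 on the chimpanzee diet. The groups did not overlap, although the highest pellet array and the lowest chimpanzee array, both of batch 1, were close. The difference was −0.91 (SE 0.17, adjusted p = 0.058), with −0.45 within batch 1, −1.37 within batch 2 and −0.78 without pellet batch 2 replicate 1. Dusp5 differed by −0.51 (SE 0.16), with −0.52 within batch 1 and −0.50 within batch 2, but the latter was −0.18 without pellet batch 2 replicate 1. Dusp6 differed by −0.61, by 0.09 within batch 1 and by −0.27 without that array. Bdnf, the growth factor of synapses, had −0.35 (−0.30 without it) and Arc, which shapes synaptic receptors, −0.42 (−0.22 without it). Of all 20 effectors 18 were lower (90%), against 70.2% of all features and 89% of those with a mean level of at least 6. Of the 20, 3 were lower at an unadjusted p under 0.01 (1.28% of all features). Their median of −0.31 was −0.05 within batch 1 and −0.21 without pellet batch 2 replicate 1.

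Outside the lists, Cdh19, a cadherin of glial cells, was lower on all 6 pellet arrays, at 3.48, 3.80 and 4.03 against 4.24, 4.39 and 4.66. The difference of −0.65 (SE 0.12, adjusted p = 0.058) was near in size in both batches (−0.57 and −0.74). All 6 pellet values lay under 4.07, the lowest mean level that was tested, and all chimpanzee values lay above it. Cdh19 entered the test because its mean over the whole series was 4.16. Whether it was detected on the pellet arrays was not tested. Camk1g, a calcium-dependent kinase of neurons, was at 6.18, 6.55 and 6.62 on pellets and at 6.72, 6.94 and 7.21 on the chimpanzee diet, without overlap and with little spread (−0.48, SE 0.09, adjusted p = 0.076). Htr1b, a serotonin receptor of nerve endings that belongs to the serotonin list, did not overlap either. Its lowest pellet value, 3.21 in pellet batch 2 replicate 1, lay far below the next. The difference of −0.90 (SE 0.30) became −0.52 without that array. Ankrd33b (−0.94), Frmd6 (−0.92), a regulator of the Hippo pathway, and Mtm1 (−0.93), a lipid phosphatase, had larger differences than most and overlapped between the diets.

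Features that were higher on pellets were fewer and smaller in size. Opalin, a membrane protein of myelin-forming oligodendrocytes, was at 6.86, 7.25 and 7.45 on pellets and at 6.50, 6.57 and 7.01 on the chimpanzee diet. The groups overlapped in batch 2 only, and the difference of 0.51 (SE 0.13, adjusted p = 0.38) was 0.77 within batch 1 and 0.24 within batch 2. Gjb1, a gap junction protein of oligodendrocytes, had 0.41 (SE 0.13). These were the only 2 of 15 oligodendrocyte genes that were higher in both batches, since the list's median of −0.08 was 0.53 within batch 1, −0.69 within batch 2 and 0.16 without pellet batch 2 replicate 1. Mbp, the main myelin protein, had −0.20 and changed sign without that array, to 0.06.

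Mmp14, a membrane-bound metalloprotease, was at 4.81, 5.01 and 5.68 on pellets and at 4.54, 4.60 and 4.68 on the chimpanzee diet. It was one of 17 features with all pellet arrays above all chimpanzee arrays (0.123%), and Cdh15, a cadherin, was another. Their differences were 0.52 (SE 0.12, adjusted p = 0.22) and 0.42 (SE 0.14, adjusted p = 0.45). The other named features of this direction, Trav9d-3 (0.78), A230001M10Rik (0.65), Ppp1r32 (0.58), Eln (0.54), Lrrc23 (0.54), Evpl (0.49) and Ptpn18 (0.48), overlapped between the diets. For all of these but Evpl, pellet batch 2 replicate 1 was the highest array, and without it their differences were 0.31 to 0.47.

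Ciliated cells that line the ventricles, the ependyma, gave a list that ran the other way from the clock and glucocorticoid lists. All 10 measured genes were higher on pellets in the mean (29.8% of all features) and 8 were higher in both batches (9.51% of all features). The median was 0.29, with 0.14 within batch 1 and 0.46 within batch 2. None of the 10 had an unadjusted p under 0.01. Rsph1, a protein of the ciliary spoke, had 0.35 (SE 0.14), Dnah11, a ciliary dynein, 0.34 (SE 0.13) and Foxj1, the transcription factor of motile cilia, 0.28 (0.16 without pellet batch 2 replicate 1). Pellet batch 2 replicate 1 had the highest mean level of the list, at 5.29, while the chimpanzee arrays ran from 4.51 to 4.90 and the lowest pellet array was at 4.63. Without that array the median was 0.16, and all 10 remained above 0. These levels lay not far above 4.07, the lowest mean level that was tested. The share of features lower on pellets changed with level, from 47.1% with no filter to 89% at a mean level of at least 6.

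Marker genes of some brain regions differed between single arrays. Pcp2, a marker of cerebellar Purkinje cells, was at 9.06 in pellet batch 2 replicate 3 and at no more than 5.64 in the other pellet arrays, while the chimpanzee arrays ran from 4.14 to 5.55. The mean level of the 8 cerebellar genes per array reached 8.09 on pellets and 6.01 on the chimpanzee diet. Of the 8, 7 had a higher mean on pellets (29.8% of all features). Their median of 0.28 was 0.62 without pellet batch 2 replicate 1. Per array, their median deviation from the chimpanzee mean was 1.93 in pellet batch 2 replicate 3 and −1.07 in pellet batch 2 replicate 1. In the other pellet arrays it ran from −0.05 to 0.27. Prkcd, a kinase of thalamic neurons, lay between 7.17 and 7.52 on pellets and at 5.72 and 6.13 in chimpanzee batch 1 replicate 1 and batch 2 replicate 2, with the other chimpanzee arrays at 7.12 to 7.31. Of the 13 thalamic genes 11 were higher on pellets (29.8% of all features). Their median of 0.11 was 0.57 within batch 1, −0.33 within batch 2 and 0.28 without pellet batch 2 replicate 1. Of 12 cortical genes 10 were lower (83.3%), against 70.2% of all features and 89% of those with a mean level of at least 6. Among them Tbr1, a transcription factor of deep layer neurons, had −0.50 (SE 0.15). The median of the 12 was −0.34, and −0.17 without pellet batch 2 replicate 1. The 8 genes of the hippocampus had −0.31, which was −0.03 within batch 1 and −0.17 without that array. Lists of the striatum (13, −0.24), the olfactory bulb (13, −0.02), the hypothalamus (8, 0.07) and the pituitary (4, 0.12) had medians that changed sign between the batches. That of the pituitary rests on pellet batch 2 replicate 1, without which it was −0.39 and all 4 genes were lower. The median of the striatum was −0.06 without that array and that of the olfactory bulb −0.08. The part of these region differences in the clock and glucocorticoid results was not tested.

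The medians of the metabolism lists had opposite signs in the 2 labelled batches, as did that of all features (0.13 and −0.44). Arrays of the same batch also differed. The median deviation of the oxidative phosphorylation genes from the chimpanzee mean was 0.28, −0.64 and −0.45 in the arrays of chimpanzee batch 1. In those of pellet batch 2 it was −1.07, −0.54 and −0.005. The cause was not tested. All 34 measured genes of oxidative phosphorylation were lower on pellets in the mean, with a median of −0.18, but the median was 0.44 within batch 1 and −0.81 within batch 2, 0 genes were lower in both, and it turned to 0.03 without pellet batch 2 replicate 1 and to 0.02 after another quantile normalization. Glycolysis and pyruvate (23 genes) gave −0.26, with 0.38 and −0.87 within the batches and −0.04 without that array. Dlat, a subunit of the pyruvate dehydrogenase complex, differed by −0.56 (SE 0.27), and by −0.21 without pellet batch 2 replicate 1, where it was at 5.28. Slc2a1, the glucose carrier of the blood-brain barrier, had −0.53 (SE 0.23), with 0.07 within batch 1 and −0.29 without that array.

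Over all features the median was 0.13 within batch 1 and −0.44 within batch 2. The same split, above 0 and then under 0, ran through the following lists, some of them with values near those of all features. It held for synthesis and handling of cholesterol (21 genes, 0.27 and −0.60), synthesis and desaturation of fatty acids (26 genes, 0.33 and −0.74), oxidation of fatty acids and ketone use (19 genes, 0.30 and −0.58) and antioxidant enzymes (22 genes, 0.32 and −0.61). It also held for the amino acid response (22 genes, 0.13 and −0.32), cytosolic ribosomal proteins (23 genes, 0.37 and −0.75) and insulin, IGF1 and FOXO signalling (22 genes, 0.20 and −0.64). In the last list Igf1r, the receptor of IGF1, had −0.38 (SE 0.19) and Foxo3, a transcription factor that insulin keeps out of the nucleus, −0.27 (SE 0.14). Both were 0.04 within batch 1, and without pellet batch 2 replicate 1 they were −0.25 and −0.15. Lists of neurotransmission did likewise: feeding neuropeptides (14 genes, 0.08 and −0.39), serotonin (9 genes, 0.32 and −0.72), GABA-A receptors (10 genes, 0.13 and −0.79) and glutamate receptors (23 genes, 0.18 and −0.69).

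Chaperones and heat shock genes (25 genes) had a median of −0.24, which was 0.31 within batch 1, −0.86 within batch 2 and −0.0006 without pellet batch 2 replicate 1. Hspa1b, an inducible HSP70, was one of the members with a difference in the same direction in both batches (−0.24 and −1.05), as was Dnajb5, its cochaperone, with −0.42 and −0.95 and a difference of −0.68 (SE 0.17, adjusted p = 0.27) overall. Both overlapped between the diets. Among markers of cell types, neurons (16 genes) gave 0.36 and −0.89 within the batches, astrocytes (14) 0.38 and −0.52, microglia (12) 0.15 and −0.46, endothelium and pericytes (12) 0.26 and −0.29, the choroid plexus (8) 0.39 and −0.27 and red blood cells (2) 0.46 and −0.48. Over all features the medians were 0.13 and −0.44, and the meninges (11 genes) had 0.08 and 0.15. Gad2, of inhibitory neurons, and Slc17a7, of excitatory ones, differed by −0.38 (SE 0.21) and −0.32 (SE 0.17). Within batch 1 these were 0.11 and −0.02, and without pellet batch 2 replicate 1 they were −0.15 and −0.23. Fabp7, of astrocytes, had 0.51 (SE 0.26), and 0.83 (SE 0.17, adjusted p = 0.11) without pellet batch 2 replicate 1, where it was at 7.63 against 9.09 or more in the other pellet arrays. Col3a1 and Slc6a13, of the meninges, had 0.42 (SE 0.16) and 0.36 (SE 0.13), the latter 0.21 without that array.

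**Figure D4:**
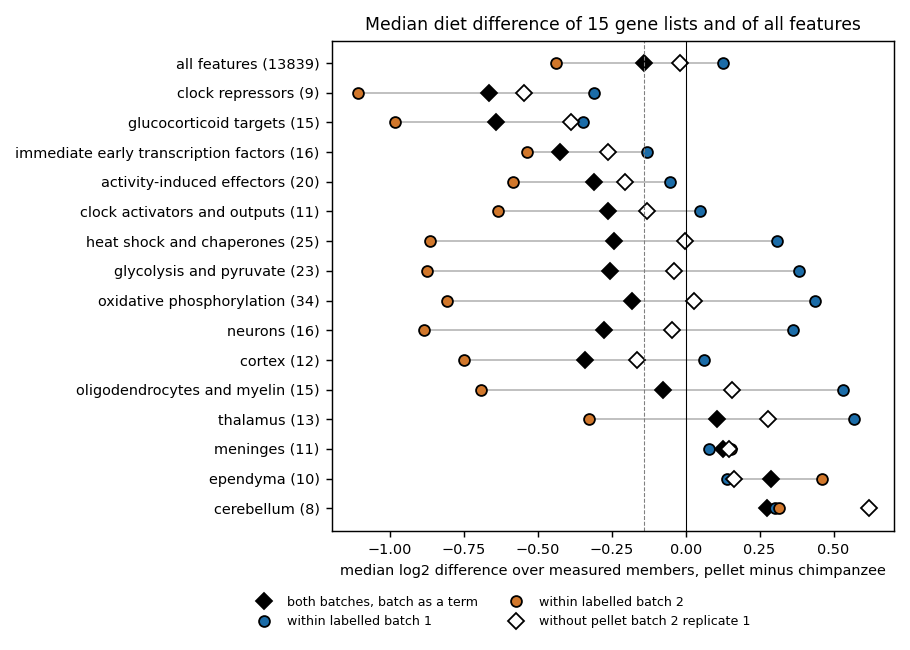
Median log2 difference, pellet minus chimpanzee, over the measured members (number in brackets) of 15 gene lists and of all features, with batch as a term (black), within each labelled batch (blue and orange) and without pellet batch 2 replicate 1 (white), and a dashed line at the median of all features, −0.14. The medians of clock repressors, glucocorticoid targets, immediate early transcription factors and activity-induced effectors stay under 0 in all 4. Those of oxidative phosphorylation and of oligodendrocytes change sign between the batches and without that array.

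Within the batches, very different numbers of features passed. In labelled batch 1, 8 passed (0.0578%), of which 6 were higher on pellets, and the 2 that were lower were Per2 and Ankhd1. In labelled batch 2, 9081 passed (65.6%), 7358 of them lower on pellets (53.2%) and 1723 higher (12.5%). The difference between the batches itself passed for 7886 features (57%). When each array was set to the same median, 7352 passed in batch 2, of which 47.8% were higher on pellets against 19% before, and quantile normalization gave 5569, of which 47% were higher. Without pellet batch 2 replicate 1, 4986 passed in batch 2 (36%) and 5922 in the difference (42.8%). The test in batch 1 gave 169 without that array, although it is not of batch 1, since every array enters the estimate of each feature's spread. With only the 6 arrays of a batch in the fit, 0 passed in either, where 3 arrays stand against 3.

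**Figure D5:**
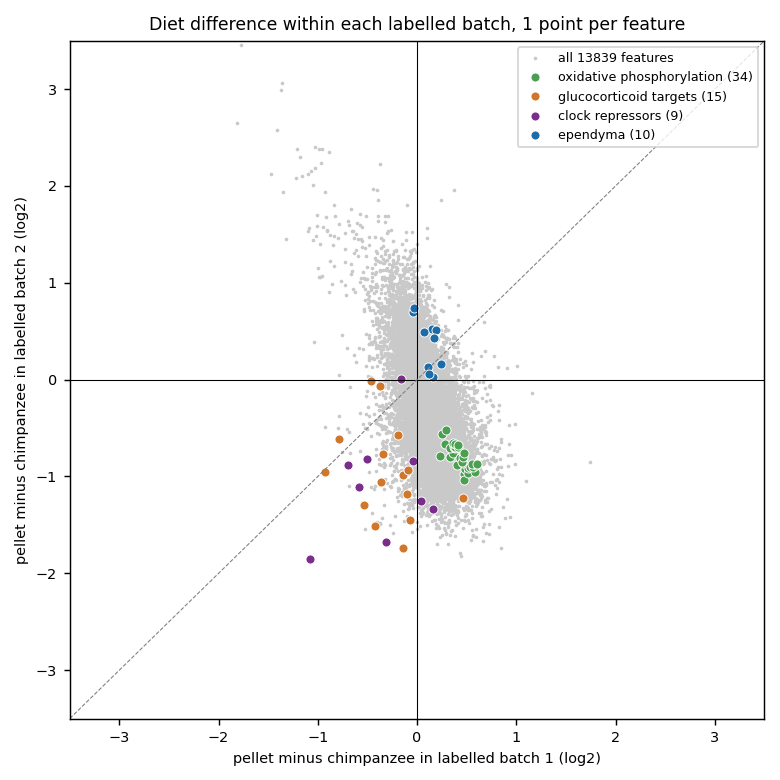
Log2 difference, pellet minus chimpanzee, of each of 13839 features within labelled batch 1 (horizontal) and within labelled batch 2 (vertical), with 4 gene lists in colour and the line of equal differences dashed. Oxidative phosphorylation lies right of and below 0, and most clock repressors and glucocorticoid targets lie left of and below 0. Over all features the differences correlate at −0.612.

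Over the features, the 2 within-batch differences correlated at −0.612, and at −0.620 without pellet batch 2 replicate 1. This is a description over 13839 features that share the arrays, and each batch's difference uses its own 6. Features that moved against each other most were not those of the clock. Vat1, a vesicle protein, was at 6.59, 6.01 and 7.21 in pellet batch 1 and at 10.02, 8.81 and 8.40 in pellet batch 2. On the chimpanzee diet it was at 5.98, 9.11 and 8.81 in batch 1 and at 6.14, 6.03 and 5.89 in batch 2. High values thus lay in pellet batch 2 and in 2 of the 3 arrays of chimpanzee batch 1, and its differences were −1.36 and 3.06 within the batches (adjusted p of their difference, 0.0020). Cryl1, Pik3cd, Laptm5 and Ptprk moved the same way, with −1.78 and 3.46, −1.37 and 2.99, −1.81 and 2.65, and −1.41 and 2.58. Chimpanzee batch 1 replicate 1 was on the low side of all 5.

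The opposite order was seen for Spire1, an actin nucleator, for Dld, a subunit shared by the dehydrogenases of pyruvate and of 2-oxoglutarate, and for Dcun1d1, Lin7c and Slc44a2. Slc44a2, a choline transporter, was at 6.33, 6.49 and 6.38 in pellet batch 1 and at 4.94, 5.49 and 4.90 in pellet batch 2. The chimpanzee arrays were at 5.40, 5.52 and 5.63 in batch 1 and at 6.33, 6.79 and 6.50 in batch 2. Its differences were 0.88 and −1.43 within the batches (adjusted p of their difference, 0.00016), so that pellet batch 1 lay beside chimpanzee batch 2 and the other pair beside each other. Those of Spire1, Dld, Dcun1d1 and Lin7c were 0.45 and −1.82, 0.66 and −1.67, 0.73 and −1.60, and 0.83 and −1.52. When the pellet arrays were given each other's batch label, which goes against the labels and was prompted by earlier results of these data, 21 features passed, all of them lower on pellets, and 16 passed without pellet batch 2 replicate 1 as well, 15 of them lower. The labels were kept for every other value.

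The 2 human diets set the levels of these genes in context, with no test. Per1 was at 6.72 ± 0.14 on pellets, at 6.84 ± 0.28 with cafeteria food, at 6.84 ± 0.20 with fast food and at 7.51 ± 0.34 with the chimpanzee diet (SD, n = 6). For this gene the 3 lower diets lay within 1 SD of each other. Cry1 was at 4.50 ± 0.29 on pellets and at 5.06 ± 0.20, 5.14 ± 0.14 and 5.16 ± 0.22 in cafeteria, fast food and chimpanzee mice (SD, n = 6). Here the 3 upper diets lay within 1 SD of each other. Sult1a1 had 4.79 ± 0.19, 5.07 ± 0.45, 5.24 ± 0.38 and 5.73 ± 0.29 in pellet, fast food, cafeteria and chimpanzee mice (SD, n = 6), and Nr4a3 had 6.92 ± 0.46, 7.22 ± 0.35, 7.12 ± 0.27 and 7.82 ± 0.40 in that order. Opalin, in the same order, had 7.19 ± 0.21, 7.12 ± 0.23, 7.04 ± 0.25 and 6.68 ± 0.22 (SD, n = 6), the chimpanzee mean being the lowest.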

How the data were processed

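RNA of the right cerebral hemisphere was measured on Affymetrix whole-genome mouse arrays, 1 per mouse. The deposited table holds log2 levels of 45101 probe sets. The methods describe levels made with "rma" in the "affy" package, which takes logs and quantile normalizes (version and annotation build not given in the sources used here). The medians of the arrays ran from 4.02 to 4.32 and their SDs from 1.58 to 2.065, so that the deposited arrays did not share 1 distribution. The reason was not tested. The diet, batch and replicate number of each array come from its title.

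After 64 control probe sets and 932 with several genes were set aside, probe sets with a mean of at least 4.07, the median, were kept, 1 per gene (the highest mean), which gave 11645 genes and 2194 unannotated features. Diet and labelled batch were fitted over all 24 arrays with limma 3.58.1 in R 4.3.3. Within-batch differences came from a fit with a mean for each diet and batch. A threshold of 0.05 was set on Benjamini-Hochberg adjusted p values over all features. An adjusted p in the text is that of limma. Control measures were compared by exact permutation of 924 divisions of 12 arrays. The fit was tested on simulated data. Detection p values were not used here, so that the mean level stands in for the methods' detection filter. The number of arrays limits the precision.

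The 36 gene lists (19 of pathways, 17 of markers, 526 of 649 genes measured) and the comparison itself were chosen with earlier results of these data known, so that lists are described and not tested. Named are the called feature, up to 10 genes each way with the largest difference at an unadjusted p under 0.01 and the same sign in both batches, the clock repressors, the 5 each way that differ most between batches, and members with the smallest p of lists. Of the last, those of lists given only by their median are left out. Fkbp5, Pdk4, Cdh19, Camk1g, the genes called in the averaged fit and the well known members of lists were named after their values were seen. Alternatives covered the filter, the probe set, normalization, spread, array weights, how batch enters, which arrays are fitted, the methods' two-way test and each array left out.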

Additional observations from a re-analysis of the deposited data

Results flagged for a closer look

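In 87 named genes, 22 of 174 groups of 6 arrays held 1 array far from the others. The limit for this is one that about 1 in 20 independent groups pass by chance. The groups here share the same 12 arrays and span both labelled batches, and many genes were named for their differences. The count of 22 therefore cannot be compared with that rate. Of the 22 outlying arrays, 19 were pellet batch 2 replicate 1. It was the lowest pellet array for the clock genes Cry1 (3.95, next 4.51), Nr1d2 (7.33, next 8.52), Bhlhe40 (5.87, next 7.48), Dbp (7.93, next 8.67), Hlf (6.87, next 7.69) and Clock (5.50, next 6.62). The same held for Nr4a3 (6.02, next 6.84), Egr1 (9.05, next 10.03), Arc (7.06, next 7.96) and Dusp6 (6.29, next 7.85), and for the glucocorticoid targets Sgk1 (5.91, next 6.93), Tsc22d3 (5.59, next 7.59) and Fkbp5 (5.02, next 5.81). It also held for Frmd6 (4.99, next 6.12), Htr1b (3.21, next 5.03), Fabp7 (7.63, next 9.09), Dnajb5 (6.50, next 7.35), Dlat (5.28, next 7.04) and Dld (4.76, next 7.02). Per1, Per2 and Ciart are not among them. Elsewhere Pcp2 was high in pellet batch 2 replicate 3 (9.06, next 5.64), Slc6a13 low in chimpanzee batch 2 replicate 2 (4.55, next 4.92) and Ier2 high in chimpanzee batch 1 replicate 1 (6.27, next 5.65).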

How the results depend on the processing

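Per2 passed in 24 of 26 alternatives that gave it a value, with differences from −1.58 to −1.12, and missed with only the 12 arrays of both diets and in the methods' two-way test. The 1 call of the comparison became 0 with a mean level of at least 6 (which leaves Per2 out), 0 with only the 12 arrays, 0 in the methods' test (after 6278 features with an interaction were removed, 80 of 7561 had a p under 0.01, 1.06%), 11 after quantile normalization, 8 at the same median, 4 with a trended and robust spread, 5 without a batch term, 16 averaged over the batches, 21 with the pellet batch labels exchanged and 16 when pellet batch 2 replicate 1 was left out as well. Leaving out each array in turn gave 1 to 5, with 5 without pellet batch 1 replicate 3, 3 without chimpanzee batch 1 replicate 2 and 2 without chimpanzee batch 2 replicate 3. Within batch 1 the 8 calls became 56 with all probe sets, 22 with the probe set of largest spread, 3 after quantile normalization, 4 with the trended spread, 2779 with array weights, 0 with 12 arrays, 0 with 6, and 0 to 169 with an array left out, the highest being without pellet batch 2 replicate 1. Within batch 2 the 9081 became 14171 with all probe sets, 5569 after quantile normalization, 0 with 6 arrays, and 4986 to 10099 with an array left out, the lowest being without pellet batch 2 replicate 1. The difference between batches gave 12404, 3427 and, with 12 arrays, 4329 in place of 7886.

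Replicate numbers did not pair the arrays, since arrays of the same batch and number correlated at −0.416 to 0.277 in their deviations, and the replicate block left 1 call. Of 2287 gene values 17 reversed. Nr4a2 and Sik2 became 0.61 and 0.42 with the probe set of largest spread, and Nr1d1 0.086 and 0.045 after quantile normalization and at the same median. With array weights Dcun1d1, Lin7c, Slc44a2, Fos and Clock became 0.076, 0.11, 0.0024, 0.14 and 0.094, and Clock became 0.021 with exchanged labels and without pellet batch 2 replicate 1. With an array left out, Laptm5 ran from −0.097 to 1.02, Dld from −0.73 to 0.010, Lin7c from −0.58 to 0.11, Fos from −0.44 to 0.013, Clock from −0.26 to 0.042 and Mbp from −0.39 to 0.061, and the difference in 18S was −0.0084 without pellet batch 2 replicate 1. The cause was not tested.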
